A study of Mus musculus with 4 samples.

Results

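The genes described here are those of the cytosolic ribosomal proteins, taken by name: every protein-coding gene of the RefSeq annotation of GRCm38 whose symbol is Rpl or Rps followed by a digit, plus Rplp0, Rplp1, Rplp2 and Rpsa, without the Rps6k kinases. The rule found 91 genes among 21887 protein-coding genes on the assembled chromosomes. Of these, 77 encode a canonical ribosomal protein: 43 of the large subunit, 3 of its stalk and 31 of the small subunit. The other 14 are retained by their symbols. They are paralogues and retrocopies such as Rpl3l, Rpl10l, Rpl22l1, Rpl39l and Rps27l, and Rps19bp1, which encodes a protein that binds Rps19 and is not itself a ribosomal protein.

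Occupancy of the transcription factor Deaf1 was profiled by ChIP-seq (chromatin immunoprecipitation with sequencing) in C2C12 cells, an immortalised mouse line of myoblasts. The group used here comprised 2 libraries precipitated with an anti-Deaf1 antibody, and each had an input library made without antibody. The labels name no genotype, treatment or time. They place all cells in serum-containing medium and do not say whether the replicates came from separate cultures. They describe chromatin fixed with formaldehyde and sheared by sonication, but also name the assay native ChIP-seq, a term for unfixed chromatin. There was 1 condition, so values describe occupancy and not a change.

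Ribosomal proteins assemble with ribosomal RNA into the subunits that translate mRNA, and growing cells make them in very large and balanced amounts. Their genes are short and highly transcribed. Many of their transcripts begin with a C followed by a run of pyrimidines, the terminal oligopyrimidine tract through which mTOR signalling controls their translation. Deaf1 binds DNA through its SAND domain and recognises sites built around the letters TTCG.

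The deposited peak lists held 1860 peaks for replicate 1 and 3126 for replicate 2, and the authors' combined list held 1550 regions. Each peak carried a fold enrichment, the ratio of ChIP fragments to local background at its summit. The number of fragments at each summit was recovered from that ratio and the peak's p. The lowest background in the lists was 1.80 fragments in replicate 1 and 2.09 in replicate 2. The median summit of all peaks held 22 and 23 fragments, so single peaks carry a wide counting error. A gene is said below to have a region where a row of the combined list lies within 1 kb of the start or end of its span.

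The start regions of 10 genes are printed here to show the sequence around the start. Of these, 5 have a region there at an IDR of at most 0.05, and 3 have one of a higher IDR there (Rpl41, Rpl13 and Rps27). The other 2, Rplp0 and Rps12, have no region. The 10 genes were picked after the sequences had been seen, as examples. Each line gives 100 bases before the annotated start and 10 bases from it, 5′ to 3′ along the gene, from RefSeq on GRCm38.p6. The replicate 2 summit of Rpl27, 10 bp after its start, lies just outside its line. Capitals mark TTCG or its reverse complement CGAA, and CCGGAAG, the core of sites for ETS factors, or its reverse complement CTTCCGG.
Rpl28 (chr7:4792865-4792974, plus strand): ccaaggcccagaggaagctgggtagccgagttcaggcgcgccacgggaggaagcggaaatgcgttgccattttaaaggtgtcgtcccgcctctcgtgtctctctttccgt
Rps21 (chr2:180257279-180257388, plus strand): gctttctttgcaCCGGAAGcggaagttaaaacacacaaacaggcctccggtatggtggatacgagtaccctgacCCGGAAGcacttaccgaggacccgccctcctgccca
Rpl37 (chr15:5116513-5116622, plus strand): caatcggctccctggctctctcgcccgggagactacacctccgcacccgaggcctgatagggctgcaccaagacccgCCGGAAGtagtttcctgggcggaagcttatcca
Rpl41 (chr10:128549159-128549268, minus strand): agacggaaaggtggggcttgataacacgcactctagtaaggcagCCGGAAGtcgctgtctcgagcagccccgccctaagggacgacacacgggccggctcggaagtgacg
Rps7 (chr12:28635944-28636053, minus strand): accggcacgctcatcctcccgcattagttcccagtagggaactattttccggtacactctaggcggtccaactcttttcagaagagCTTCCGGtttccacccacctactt
Rpl27 (chr11:101442145-101442254, plus strand): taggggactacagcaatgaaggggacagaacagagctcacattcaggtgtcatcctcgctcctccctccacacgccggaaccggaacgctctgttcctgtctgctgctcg
Rpl13 (chr8:123102250-123102359, plus strand): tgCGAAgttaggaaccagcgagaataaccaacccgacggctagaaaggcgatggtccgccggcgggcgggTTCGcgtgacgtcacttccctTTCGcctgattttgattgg
Rps27 (chr3:90213639-90213748, minus strand): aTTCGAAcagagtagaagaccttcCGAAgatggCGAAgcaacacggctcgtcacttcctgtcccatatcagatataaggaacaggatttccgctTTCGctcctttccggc
Rplp0 (chr5:115559367-115559476, plus strand): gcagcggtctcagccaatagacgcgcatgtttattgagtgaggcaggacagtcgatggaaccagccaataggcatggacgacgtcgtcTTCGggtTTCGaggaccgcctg
Rps12 (chr10:23787200-23787309, minus strand): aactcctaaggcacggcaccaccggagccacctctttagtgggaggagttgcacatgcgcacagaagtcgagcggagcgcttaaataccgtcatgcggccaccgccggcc

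Of the 91 ribosomal protein genes, 32 (35.2%) had a region of the combined list. Among all other protein-coding genes the share was 6.87% (1497 of 21796). The list of replicate 1 held peaks at the same 32 genes, where 7.41% of other genes had a peak. The list of replicate 2 held peaks at these and 12 more, 44 in all (48.4%), where 11.1% of other genes had one. A score of at least 540 stands for an irreproducible discovery rate (IDR) of at most 0.05. The IDR used here is the global one, the estimated share of regions ranked at least as high that do not repeat between the replicates. With only regions of that score, 15 genes (16.5%) kept a region, against 3.07% of other genes. No test over genes was run, so these shares are set side by side as a description.

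Both subunits were represented about equally. A region was found at 17 of 43 canonical large-subunit genes (39.5%), at 12 of 31 small-subunit genes (38.7%) and at 2 of 3 stalk genes. Rplp1 and Rplp2, the acidic stalk proteins that engage elongation factors, each had one, and Rplp0, which anchors them to the ribosome, had none. Of the 14 genes retained by symbol, only Rps19bp1 had a region. No peak of either list lay within 1 kb of an end of the tissue-restricted paralogues Rpl3l, which is made in muscle, and Rpl10l, which is made in testis.

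Shares of similar size were found in related gene groups. The 78 genes of the mitochondrial ribosomal proteins (symbols Mrpl or Mrps and a digit) had 26 with a region (33.3%), and the 71 translation factor genes (Eif or Eef and a digit) had 23 (32.4%). Of 123 ribosome assembly genes, 52 (42.3%) had one. Differences between these groups were not tested. In each of the lists plotted by gene group, all 4 of these groups stood above the other protein-coding genes, which here include the last 3 groups.

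**Figure D1:**
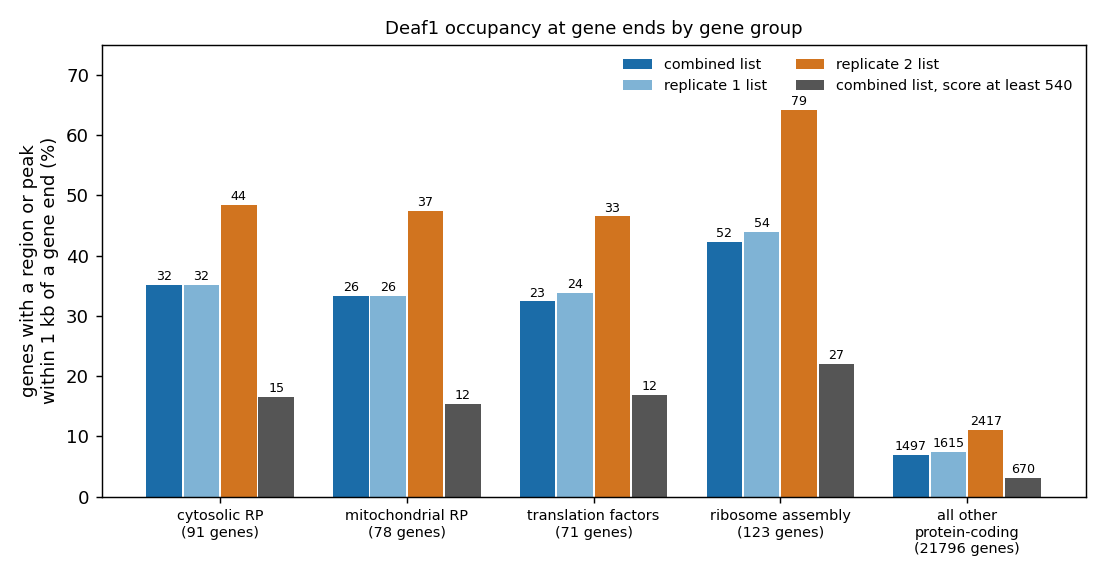
Percentage of genes in each group (x axis) with a row within 1 kb of a gene end (y axis, percent), for the combined list, each replicate's list and the combined list at a score of at least 540, with the number of genes above each bar. Cytosolic ribosomal protein genes (RP) reach 35.2% in the combined list, close to mitochondrial ones at 33.3%, and all other genes reach 6.87%.

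Where a start was listed, most summits lay close to it. The 32 genes carried 35 regions, since Rpl13a, Rpl41 and Rps14 each had 2. By the replicate 2 summit, 26 of the 32 genes had a region centred within 100 bp of an end of the gene. RefSeq gave a start with its strand for 24 of the 32. Where a gene had 2 regions, only the summit nearer to a start was counted. This leaves out summits 1370 bp after the start at Rpl41 and 223 bp before it at Rpl13a. In these 24 genes, 21 summits (87.5%) fell within 100 bp of the nearest annotated start and 15 (62.5%) within 50 bp. The median was 44 bp upstream. The outermost of these summits were 313 bp upstream, at Rps19, and 31 bp downstream, at Rpl24. A summit preceded the start in 18 genes, followed it in 5 and fell on it in 1, Rpl37a. Other genes with a region and a listed start, 1215 in number, had 67.3% of summits within 100 bp and 50.1% within 50 bp, with a median of 30 bp upstream. The plot of summit positions shows both groups.

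**Figure D2:**
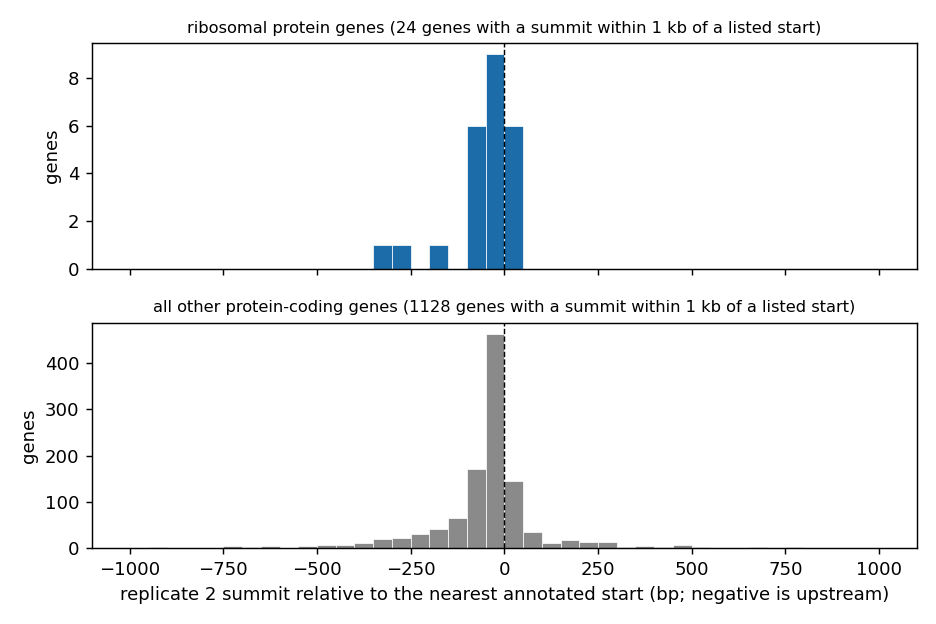
Number of genes (y axis) by the distance of the replicate 2 summit from the nearest annotated start (x axis, bp in steps of 50, negative upstream, dashed line at the start), for ribosomal protein genes and all other genes with a region. The 24 ribosomal protein genes, each by its summit nearest to a start, run from 313 bp upstream to 31 bp downstream.

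Rpl28, a protein of the large subunit, had the strongest region. Its region on chromosome 7 (4792394 to 4793284) was also the longest of the 35, at 891 bp. At its summit lay 93 fragments in the first library, with an exact Poisson interval (95%) of 75.1 to 114, and 100 in the second, with 81.4 to 122. The deposited fold enrichment was 20.8 and 20.7 (20.8 ± 0.1, SD, n = 2), and the IDR was 0.010. Both libraries thus gave the same level, and the peak ranked 40th and 59th by fold in its list. In the sequence above, the replicate 2 summit lies 91 bp before the start, and none of the 4 TTCG matches of the longer 300-base window falls in the printed part.

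Rpl37, of the large subunit, had the next highest summits, with 55 fragments in replicate 1 (41.4 to 71.6) and 75 in replicate 2 (59.0 to 94.0). Its fold enrichment was 10.4 and 11.2, because the local background there was raised in both libraries, to 4.39 and 5.80 fragments. The region (chromosome 15, 5116274 to 5116801) had the lowest IDR of the set, 0.0089, and also lay within 1 kb of an end of Card6. Rps21, of the small subunit, reached 41 fragments (29.4 to 55.6) and 49 (36.3 to 64.8), with a fold enrichment of 11.6 and 16.2 and an IDR of 0.0095 (chromosome 2, 180257208 to 180257444). Both promoters hold CCGGAAG, once for Rpl37 and at 2 places for Rps21 in the printed sequence, and neither holds TTCG there.

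Further large-subunit genes with an IDR of at most 0.05 were Rpl27, Rpl34, Rpl6, Rpl8, Rpl37a, Rpl23 and Rpl41. Rpl27 (chromosome 11, 101442155 to 101442452) had 37 and 49 fragments and a fold enrichment of 10.4 and 12.8, with summits 7 and 10 bp after the start. Rpl8, which reaches close to the catalytic centre of the ribosome, had 42 and 41 fragments and a fold enrichment of 12.1 and 10.1. At Rpl34 the summits held 36 and 46 fragments, and at Rpl6 they held 27 and 36. Rpl37a held 24 and 31 fragments, and Rpl23 held 38 and 34. The Rpl41 region at that IDR had its summit 1370 bp after the start, nearest to Zc3h10, and the one at the start had 21 and 30 fragments and an IDR of 0.062. In every one of these genes the counting intervals of the 2 libraries overlapped.

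Small-subunit genes at that IDR included Rps21, Rps7, Rps19 and Rps14. Rps7 (chromosome 12, 28635882 to 28636083) had 36 and 50 fragments, with a fold enrichment of 13.2 and 7.50. Rps19, a gene mutated in the inherited anaemia Diamond-Blackfan anaemia, had 26 and 32 fragments, a fold enrichment of 9.64 and 9.94, and summits 295 and 313 bp upstream of its start. Rps14, which sits on the platform of the small subunit, had 52 and 62 fragments at the stronger of its 2 regions and 21 and 26 at the weaker. Rps19bp1, the symbol-only gene, stood at 29 and 48 fragments with a fold enrichment of 9.04 and 13.6.

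Weaker regions were found at other central ribosomal genes. Rps6, the substrate of the S6 kinases, had 22 fragments (13.8 to 33.3) in replicate 1 and 36 (25.2 to 49.8) in replicate 2, with an IDR of 0.26. Rps20 had 18 and 25 fragments, and Rpl9 had 20 and 21, both with an IDR of 0.51, the highest value in the list. The stalk genes had 22 and 33 fragments at Rplp1 and 17 and 18 at Rplp2. Rpl13a, a protein also known from translational control in inflammation, had 18 and 18 fragments at the region nearer its start and 10 and 16 at the other, the fewest of all. Other genes with a region were Rpl13, Rpl24, Rpl29, Rpl30, Rpl35, Rpl38, Rps9, Rps18, Rps26 and Rps27, with 17 to 33 fragments in replicate 1 and 25 to 47 in replicate 2. Among these named genes Rps18 had the highest fold enrichment in both libraries, 8.80 and 15.5, at an IDR of 0.16.

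**Figure D3:**
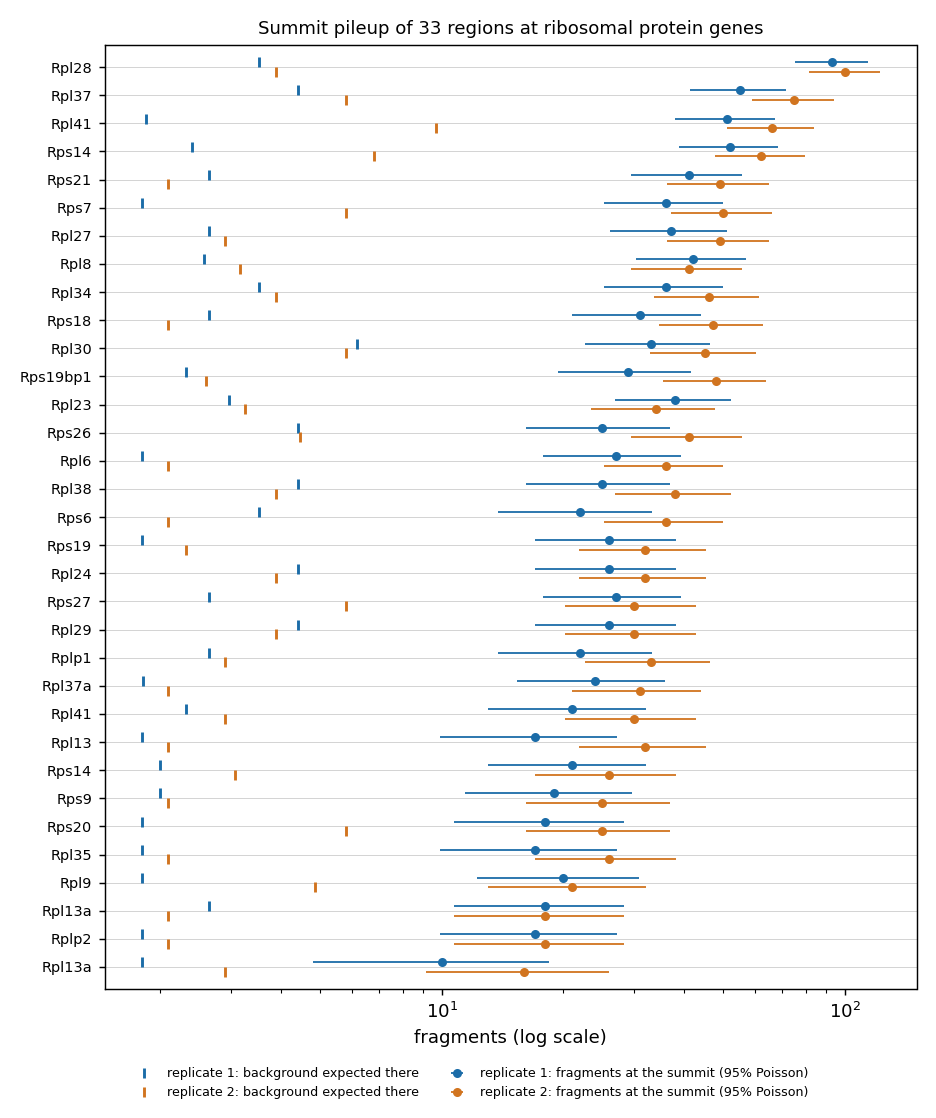
Fragments at the summit (x axis, log scale) of 33 of the 35 regions at ribosomal protein genes (y axis, 1 row per region, ordered by the sum of both libraries), as points with 95% exact Poisson intervals, with the expected background as ticks, for replicates 1 and 2. Rpl28 stands highest at 93 and 100 fragments, and the intervals of the 2 libraries overlap in every row.

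Over the 35 regions the fold enrichment had a median of 7.70 in replicate 1, with quartiles of 6.38 and 10.2. In replicate 2 the median was 8.24, with quartiles of 6.70 and 10.5. Over the 1214 other regions at gene ends the medians were 7.50 (quartiles 5.98 and 9.97) and 8.44 (quartiles 6.48 and 11.3). The median summit held 26 and 33 fragments, against 24 and 32 at the other gene ends. A score of at least 540 was reached by 15 of the 35 regions (42.9%) and by 42.2% of the others. The regions at ribosomal protein genes were thus within the range of other gene-end regions, as the plot of fold enrichment in both libraries shows. None reached the fold enrichment of the strongest gene-end regions, whose mean ran up to 46.4.

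**Figure D4:**
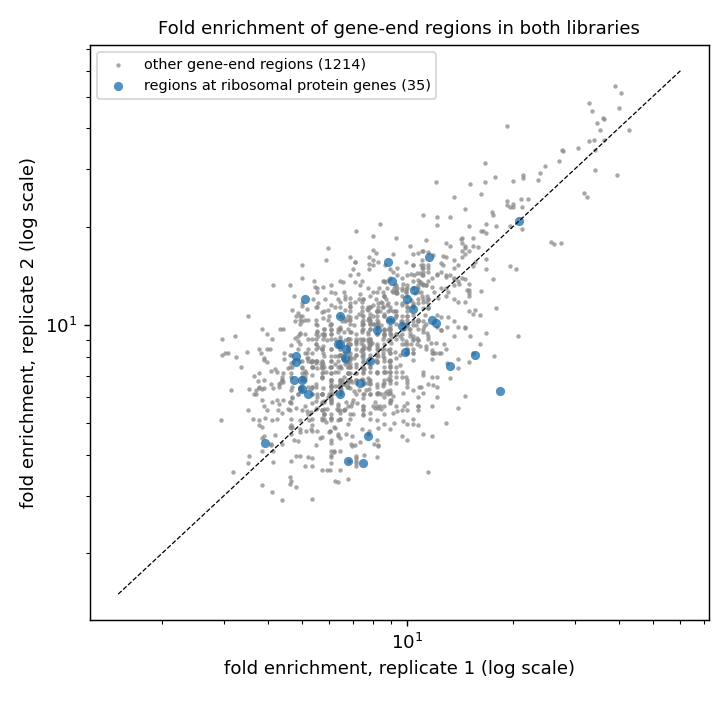
Fold enrichment of each gene-end region in replicate 1 (x axis) and replicate 2 (y axis), both on log scales, with the line of equal values dashed. The 35 regions at ribosomal protein genes, with medians of 7.70 and 8.24, lie among the 1214 other regions, with medians of 7.50 and 8.44.

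The libraries differed more in background than in fragments at some of these genes. The pileup was higher in replicate 2 at 31 of 35 regions, where the lowest background was also higher by a factor of 1.16. At 6 regions the fold enrichment was more than 1.5 times lower in replicate 2: those of Rps27, Rps20, Rpl9, Rps7, the stronger one of Rps14 and 1 of Rpl41. In all 6 the pileup was higher in replicate 2, while the background was 4.84 to 9.67 fragments there and 1.80 to 2.64 in replicate 1. The largest gap was at the Rpl41 region farther from the start, with 51 fragments over 1.84 in replicate 1 and 66 over 9.67 in replicate 2. Its fold enrichment was 18.3 and 6.28 (12.3 ± 8.5, SD, n = 2). At 6 others, those of Rps6, Rpl13, Rps26, Rpl38, Rps19bp1 and Rps18, the fold enrichment was more than 1.5 times higher in replicate 2.

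Replicate 2 alone had peaks at 12 further members, among them Rpl4, Rpl27a, Rpl31, Rpl32 and Rpl36a of the large subunit and Rps3, Rps3a1, Rps13, Rps25 and Rpsa of the small subunit. These peaks were also at the gene ends, with every summit within 81 bp of one. They were weak, with 15 to 33 fragments (median 20) and a fold enrichment of 4.36 to 8.72 (median 6.33). The lowest was Rps3, with 15 fragments (8.40 to 24.7). Over all 896 gene-end peaks of replicate 2 without a peak of replicate 1, the median was 19 fragments. Each of the members with a peak in replicate 1 also had one in replicate 2.

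The rule on gene ends left out 2 members with a region at an annotated start inside the gene's span. At Rpl18 the region (chromosome 7, 45717955 to 45718105) lay 50 bp upstream of a listed start of Rpl18 by its replicate 2 summit, and 19 bp from an end of Sphk2. It had 22 and 29 fragments and an IDR of 0.032. At Rps2 the region lay 113 bp upstream of a listed start, with 17 and 22 fragments and an IDR of 0.51. In the combined list these were 2 of the 3 genes just outside the window, at 2488 and 1755 bp from a gene end. The third, Rpl7a at 2985 bp, had its nearest region at an end of Surf2. In the list of replicate 2, Rplp0 (1486 bp), Rpl17 (2337 bp), Rpl12 (2825 bp) and Rps24 (3581 bp) also had a peak at that range. Just inside the window lay Rpl38, 620 bp from an annotated end although 71 bp from a listed start by its summit, and Rpl29, at 490 bp.

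The other 47 members had no row within 1 kb of an end in any list, and these include Rpl18, Rps2 and Rpl7a. Of the large subunit they are 20 genes: Rpl3, Rpl5, Rpl7, Rpl7a, Rpl10, Rpl10a, Rpl11, Rpl12, Rpl14, Rpl15, Rpl17, Rpl18, Rpl19, Rpl21, Rpl22, Rpl23a, Rpl26, Rpl35a, Rpl36 and Rpl39. Rpl5 and Rpl11 are thus both without one, with the nearest region of the combined list 403684 and 27563 bp from an end. Of the small subunit they are 13 genes, among them Rps2, Rps4x, Rps10, Rps12, Rps15, Rps15a, Rps16, Rps23, Rps24, Rps27a, Rps28 and Rps29. Rplp0 and 13 of the symbol-only genes complete the number. A gene without a row was not detected at this depth, which does not show that Deaf1 was absent there.

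Few of the regions lay between 2 genes. Of the 35, 6 (17.1%) were also within 1 kb of an end of another protein-coding gene, against 27.8% of other gene-end regions. The partners were Rab13 at Rps27, Lias at Rpl9, Pidd1 at Rplp2, Zc3h10 at Rpl41, Card6 at Rpl37 and Vps52 at Rps18. At Rps27, Rpl9, Rplp2, Rps18 and the farther Rpl41 region the replicate 2 summit was nearer to an end of the partner, so these regions cannot be given to 1 gene.

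Promoter sequence was available for 70 of the 91 members, 24 with a region and 46 without. Each window ran from 250 bases before the 5′-most start to 50 after it, and both strands were searched. TTCG was found in 17 of 24 windows of members with a region (70.8%) and in 31 of 46 without (67.4%). It was found in 70.0% of other genes with a region, in 47.3% of other genes without one, and in 49.0% of all windows. At least 2 matches were held by 58.3% of members with a region and 37.0% of members without. The same held for 40.4% of other genes with a region, 18.2% of other genes without one and 19.9% of all windows. The differences were not tested. Rps27 had 5 matches and Rpl13 had 3, all visible in the printed lines, whereas Rps21, Rpl37, Rpl27 and Rpl41 had none in 300 bases. Members without a region varied as widely, from 5 matches at Rpl12 to 0 at Rps12.

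The letters beneath the summit were searched in the same way, in the 25 bases on each side of it and the summit base. The summit lay far enough inside the window in 21 members. TTCG was found at 6 of these (28.6%): Rpl13, Rpl13a, Rplp2, Rps18, Rps19bp1 and Rps27. Only Rps19bp1, which is not a ribosomal protein, had its region at an IDR of at most 0.05. The regions of the others had an IDR of 0.16 to 0.51. At Rplp2, Rps18 and Rps27 the summit was nearer to an end of a neighbouring gene. At other genes with a region it was found at 18.9%. At the same distances from the start, 11.3% of all promoters held it, and 15.6% of promoters with at least 10 CpG dinucleotides.

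CCGGAAG, which overlaps neither TTCG nor CGAA in its letters, was found in 11 of 24 windows of members with a region (45.8%) and in 14 of 46 without (30.4%). Other genes with a region held it in 51.9% of windows and those without in 8.81%, and all windows in 11.9%. Under the summit it was found at 3 of 21 members (14.3%), Rpl6, Rps21 and Rps7, against 42.6% of other genes with a region and 3.40% of all promoters at the same distances. With 40 bases on each side these shares were 31.6% (of 19 members) and 54.3%. The difference from other genes with a region was not tested.

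A pyrimidine tract, here a C followed by at least 4 pyrimidines between 5 bases before and 10 after the listed start, was present in 12 of 24 members with a region (50%) and 19 of 46 without (41.3%). In all promoters its share was 18.8%, and in other genes with a region 24%. The TATA box letters TATAA were found in 29.2% of members with a region and 28.3% of those without, against 9.38% of other genes with a region and 22.8% of all windows. AAGATGG, part of the YY1 site, was found in 16.7% and 13.0% of members, in 8.72% of other genes with a region and in 6.35% of all windows. GGGCGG, bound by the Sp1 family, was found in 54.2% and 58.7%, in 64.1% of other genes with a region and in 46.3% of all windows. The E-box CACGTG was found in 12.5% and 4.35%, or 3 and 2 genes, in 9.3% of other genes with a region and in 7.91% of all windows.

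Members with and without a region differed little in CpG content, with medians of 22.5 and 20 CpG dinucleotides per window, against 22 in other genes with a region and 12 in other genes without one. Since regions were rare at promoters poor in CpG, the share was also read within classes of CpG count. Among genes with at least 10, a region was found at 23 of 63 members (36.5%) and at 1148 of 9945 other genes (11.5%). Between 20 and 24 it was found at 9 of 20 members (45.0%) and at 14.3% of other genes. The share was higher in members in each of the 5 classes from 5 CpG upward, though 4 of these classes held fewer than 20 members and 1 held 3.

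**Figure D5:**
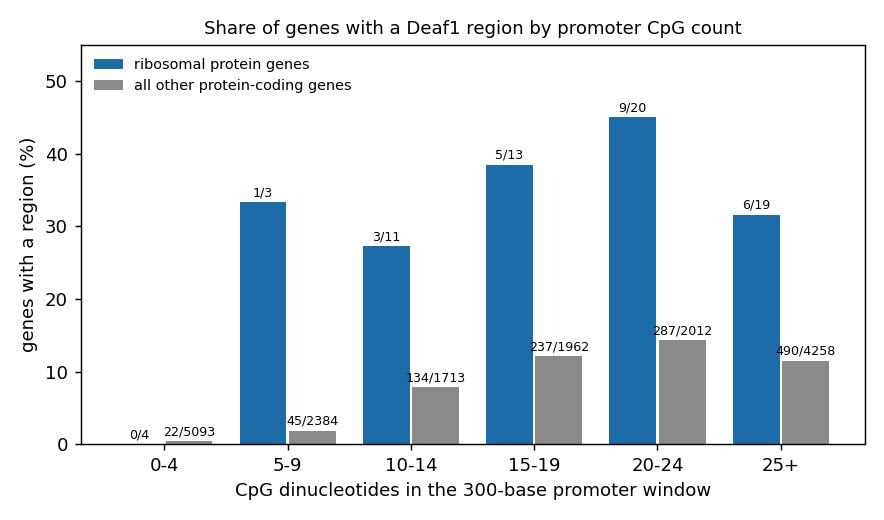
Percentage of genes with a region (y axis) by the number of CpG dinucleotides in the 300-base promoter window (x axis), for ribosomal protein genes and all other genes, with the number of genes with a region over the number in the class above each bar. At 20 to 24 CpG, 9 of 20 ribosomal protein genes (45.0%) and 14.3% of other genes had a region.

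Fau, which encodes Rps30 fused to a ubiquitin-like part and lies outside the naming rule, had a region of the combined list and peaks in both replicate lists, but none with a score of at least 540. The summits of the stronger region held 40 and 46 fragments, with a fold enrichment of 14.6 and 6.05, and the same region lay within 1 kb of an end of Mrpl49. Rps27a, a member that encodes a fusion with ubiquitin, had none.

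The genes that build the ribosome were also among those with regions. Of 123 assembly genes, 27 had a region with a score of at least 540 (22.0%), where 3.07% of other genes had one. They were Bysl, Ddx18, Ddx27, Ddx51, Ebna1bp2, Emg1, Gar1, Gtpbp4, Krr1, Las1l, Mdn1, Nip7, Noc3l, Noc4l, Nol10, Nol6, Nop53, Ppan, Rpf1, Rrp36, Rrs1, Utp11, Utp20, Utp23, Wdr46, Wdr74 and Zfp622. Emg1, a methyltransferase of the small-subunit RNA, had 46 and 54 fragments and a fold enrichment of 12.9 and 17.8. Nip7, which acts in subunit assembly, had 42 and 58 fragments with a fold enrichment of 15.3 and 15.1. Gar1, a component of the particles that convert uridine to pseudouridine, had 40 and 53 fragments. These values stand at the level of Rps21 and Rpl27. Ddx51 and Noc4l share 1 region, and the regions of Bysl, Ebna1bp2, Nip7 and Wdr46 have their summit nearer to an end of another gene.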

How the data were processed

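ChIP-seq peak lists of 2 Deaf1 libraries and the authors' combined list were used. No values of the 2 input libraries were analysed here. The submitters' processing notes list FastQC 0.11.8, BWA 0.7.17-r1198, MACS2 2.1.2 and the build mm10, with no settings. The handling of duplicate reads is not given in the sources used here. Per the file layout, the deposited lists give each peak's fold enrichment (a ratio of ChIP to local background) and the −log10 of its p and q. The deposited score of the combined list is a logarithm of the IDR. Its 6 columns after the IDR, which hold coordinates and signals of single libraries, were not used.

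Groups and replicate numbers came from the sample titles. Genes and promoters came from RefSeq tables of GRCm38.p6, the assembly of mm10. Coordinates are 1-based. Distance ran from any base of a row to the nearer gene end. Each region took the strongest overlapping peak of each replicate. Pileup and background were solved from fold = (pileup + 1)/(background + 1) and the Poisson p. All 1860 and 3126 peaks had 1 solution, which returned the deposited −log10 p to within 5.1e-05. The steps were tested on simulated data. Poisson intervals (95%) cover counting error only. Python 3.11.15, pandas 2.3.3, NumPy 2.4.6 and SciPy 1.17.1 were used.

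No test was run over genes, peaks or promoters, and the libraries form 1 group, so shares are set beside those of all other genes. Named were all members with a row in any list or within 5 kb, Fau, and assembly genes with a score of at least 540. A few genes that this rule names are not reported here by name and are kept in the counts. The members and lists were chosen with earlier results of these data known. The pyrimidine tract, the CpG classes, the search under summits and its 40-base alternative, the 1.5-times limit between libraries, the split by small nucleolar RNAs and the choice of printed sequences were made after the data were seen. Of 14 RNA polymerase I symbols, 11 were found in the table.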

Additional observations from a re-analysis of the deposited data

How the results depend on the processing

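The number of members with a region depended on the score. At a score of at least 540 it fell from 32 to 15, and the share of other genes fell from 6.87% to 3.07%. Windows of 500 bp and 5 kb, the gene span plus 1 kb, listed starts, summits, canonical genes, the nearest gene end and −log10 q of at least 5 in both lists gave 26 to 35 genes. Under these settings the share of other genes ran from 5.44% (nearest gene end) to 8.65% (5 kb). Listed starts gave 26 of the 70 genes with one. With 1 library left out the number ran from 32 to 44, where other genes had 7.41% and 11.1%. The median fold enrichment, 8.54 for the mean of both libraries, then ran from 7.70 to 8.24. The peaks of single replicates gave 26 to 35 members for replicate 1 and 35 to 51 for replicate 2 under the same settings. The share of other genes ran from 5.88% to 9.32% for replicate 1 and from 8.97% to 13.9% for replicate 2. Within 100 bases before the start the share of members with CACGTG fell from 12.5% to 4.17%, which is 1 gene. Summits of 22 or 23 fragments limit what can be detected. No paired analysis was possible because only 1 group, the ChIP libraries, has values and nothing was compared between groups.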

Other observations

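Many ribosomal protein genes carry small nucleolar RNAs, guides of ribosomal RNA modification, in their introns. By the annotation 30 of the 91 members hold at least 1 within their span. Of these, 9 (30.0%) had a region of the combined list and 17 (56.7%) a peak of replicate 2. Of the 61 members without such an RNA, 23 (37.7%) had a region and 27 (44.3%) a peak of replicate 2. The order of the 2 kinds of host thus differed between the lists, and the difference was not tested.

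RNA polymerase I transcribes the large ribosomal RNA precursor. Of 11 genes of this polymerase and its factors, 3 had a region (27.3%), against 6.87% of all other protein-coding genes. Polr1b, a core subunit, had 21 and 28 fragments and an IDR of 0.074. Rrn3, an initiation factor, had 19 and 28 and an IDR of 0.087. Taf1a, a subunit of the promoter selectivity factor, had 29 and 34 and an IDR of 0.03. At a score of at least 540 only Taf1a kept its region (9.09%, against 3.07% of other genes).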
